A study of Arabidopsis thaliana with 14 samples.

Results

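AT1G19530, AT5G39520 and AT1G62510 are 3 nuclear genes of Arabidopsis thaliana whose transcripts were among the most increased when rosettes were kept in the dark past the normal end of the night. They were chosen by their measured values: each lay among the largest rises at 24 h or 48 h of extended night against the end of the night. Each gene is measured by 1 probe set annotated to that gene alone, so the members were 3 of 22746 probe sets on the array and 3 of the 13513 that the array annotation assigns to exactly 1 gene. The gene annotation used here (TAIR10.1) gives none of the 3 a symbol or a function, and each is named by its locus.

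The plants were wild type of the Columbia-0 accession, 5 to 6 weeks old, last grown with 14 h of light and 10 h of night per day, and no mutant or chemical treatment was part of the design. Each sample held 3 whole rosettes, frozen in darkness, and gave 1 Affymetrix array. Hours are counted from the end of the night, so that -2 h is still within the normal night and the others lie in the extended one. There was 1 array at -2 h, 3 at the end of the night (replicates A, B, C), 1 at 2 h, 2 at 4 h (A, B), 1 at 6 h, 2 at 8 h (A, B), 2 at 24 h (B, C) and 2 at 48 h (B, C). The labels do not say whether the lettered samples came from separate batches of plants, so p-values measure only the spread between these samples.

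A leaf in the dark lives on starch laid down the day before. In Arabidopsis that store lasts roughly until the expected dawn, and a night extended past it brings on a shortage of sugar, to which plants respond with the kinase SnRK1, the recycling of cell contents by autophagy and the breakdown of amino acids. Shortage of oxygen also starves cells of energy, and plants answer it with a core set of induced transcripts, which includes the fermentation enzymes and, in the list used here, AT1G19530. AT1G62510 is listed here among the hybrid proline-rich proteins, cell wall proteins that end in a domain with a conserved pattern of cysteines. These list memberships are background, not part of the annotation used here.

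The unit throughout is the log2 signal of a probe set after RMA (robust multi-array average), so that a difference of 1 log2 unit is a 2-fold change. Array medians lay between 6.62 and 6.77 log2 units. Of 6 leaf markers only RCA, the Rubisco activase of photosynthesis, had a probe set used here, at 13.76 to 14.03 log2 units at the end of the night, and of 4 root markers only PYK10 did, at 8.70 to 9.25 log2 units; RCA fell by 3.00 ± 0.48 log2 units (limma SE) at 48 h against the end of the night (limma, adjusted p = 7.33e-04). No flower or seed marker listed had one. Throughout, a gene counts as measured, or as having a probe set used here, only where a probe set is annotated to it alone. The annotation gave no gene for 8730 probe sets, so a gene that was not measured may still be on the array. Signal in whole rosettes cannot tell a change in the RNA per cell from a change in the share of cells of one type. The 48 h B array stood apart, with a 25S rRNA control of 8.98 log2 units against 11.05 to 13.78 on the other 13 arrays and a correlation of 0.975 with 48 h C, the lowest of any replicate pair. At every replicated time array B had the lowest value of this control. It was 11.23 (B) against 12.96 (A) at 4 h and 11.49 (B) against 13.78 (C) at 24 h.

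AT1G19530 stayed near its starting signal until 2 h into the extended night and was many times higher by 6 h. It read 4.78 log2 units at -2 h, 4.92 (A), 4.67 (B) and 4.61 (C) as the night ended and 4.98 at 2 h. It then read 8.12 (A) and 6.53 (B) at 4 h, 9.80 at 6 h, 9.79 (A) and 8.53 (B) at 8 h, 9.65 (B) and 9.27 (C) at 24 h and 11.11 (B) and 10.88 (C) at 48 h. Every array from 4 h on lay above all arrays up to 2 h, while the 4 h pair and the 8 h pair were each spread widely. The first readings lay below the median of every array, so that low signal limits how well the starting level, and with it the fold, is known.

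AT5G39520 climbed more evenly. Its signal was 5.53 log2 units at -2 h, 6.06 (A), 5.76 (B) and 5.38 (C) as the night ended, 6.28 at 2 h, 7.72 (A) and 6.92 (B) at 4 h and 9.10 at 6 h. It was 9.98 (A) and 10.08 (B) at 8 h, 10.74 (B) and 10.80 (C) at 24 h and 11.56 (B) and 11.49 (C) at 48 h. From 2 h on, the arrays of each time point lay above all arrays of the time points before it, with no overlap. The readings of AT5G39520 up to 2 h also lay below the median of every array, which likewise limits how well its fold is known.

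AT1G62510 was already higher on the 2 h array. It stood at 6.08 log2 units at -2 h, 6.99 (A), 7.11 (B) and 6.36 (C) as the night ended and 8.21 on the 2 h array. Later arrays gave 10.00 (A) and 9.33 (B) at 4 h, 10.57 at 6 h, 10.44 (A) and 10.49 (B) at 8 h, 11.79 (B) and 12.17 (C) at 24 h and 11.96 (B) and 12.19 (C) at 48 h. The 2 h array lay above all 3 end of night arrays, and the 24 h and 48 h pairs overlapped.

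**Figure D1:**
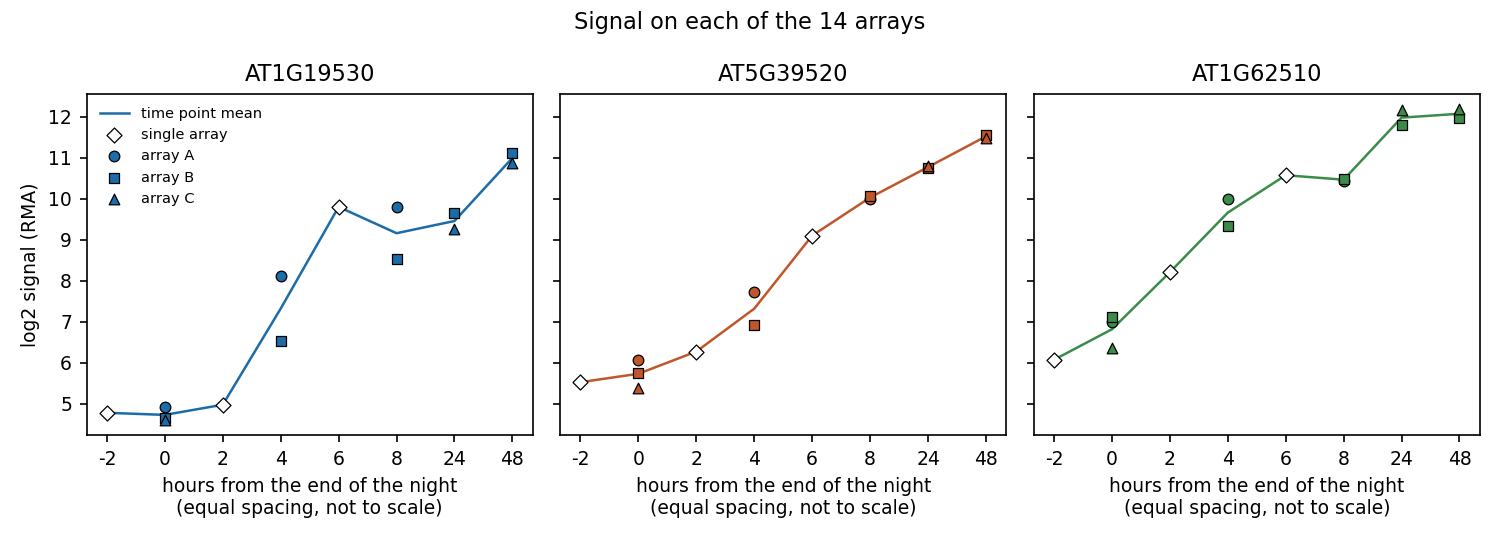
Log2 signal (vertical axis) of AT1G19530, AT5G39520 and AT1G62510 on each of the 14 arrays against hours from the end of the night (horizontal axis, equally spaced and not to scale); points are arrays, with their letter as the marker and open diamonds for times with 1 array, and lines join time point means. AT1G19530 is flat to 2 h and spread at 4 h and 8 h, AT5G39520 climbs through 48 h, and AT1G62510 is at 8.21 log2 units by 2 h and level between 24 h and 48 h.

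The values that chose the genes are given here without a test. AT1G19530 averaged 9.46 ± 0.27 log2 units at 24 h (SD, n = 2) and 11.00 ± 0.16 at 48 h (SD, n = 2), and 4.73 ± 0.16 at the end of the night (SD, n = 3). The differences were 4.73 ± 0.45 log2 units at 24 h (limma SE, 26.5-fold) and 6.26 ± 0.45 at 48 h (76.9-fold). AT5G39520 averaged 10.77 ± 0.041 at 24 h and 11.52 ± 0.051 at 48 h (SD, n = 2 each), and 5.74 ± 0.34 at the end of the night (SD, n = 3). It was higher by 5.04 ± 0.24 log2 units at 24 h (32.9-fold) and 5.79 ± 0.24 at 48 h (55.2-fold). AT1G62510 averaged 11.98 ± 0.27 at 24 h and 12.07 ± 0.16 at 48 h (SD, n = 2 each), and 6.82 ± 0.40 at the end of the night (SD, n = 3). It was higher by 5.16 ± 0.25 log2 units at 24 h (35.7-fold) and 5.25 ± 0.25 at 48 h (38.2-fold).

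Among the 13513 probe sets with 1 gene, the 24 h difference ranked AT1G62510 at 2, AT5G39520 at 5 and AT1G19530 at 6. MGL, the methionine gamma-lyase of methionine breakdown, came before them at 5.44 log2 units, and AT4G33150, the bifunctional enzyme of lysine breakdown, came next after them at 4.64. At 48 h AT1G19530 ranked 1, AT5G39520 ranked 3 and AT1G62510 ranked 11, with UPB1 just before the last at 5.28 log2 units and AT3G20340 just after it at 5.06. Among all 22746 probe sets AT1G19530, AT5G39520 and AT1G62510 ranked 16, 11 and 6 at 24 h, and 6, 13 and 23 at 48 h. At 24 h 15.5% of all probe sets were called higher and 17.2% lower, and at 48 h 20.5% higher and 20.3% lower (adjusted p under 0.05). For the 3 genes these shares carry no further information, since the same differences chose them. All 48 h values held without the 48 h B array, at 6.15 log2 units above the end of the night for AT1G19530, 5.75 for AT5G39520 and 5.37 for AT1G62510.

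On the log2 scale most of each change was already present by 8 h, although the genes were picked on the later times. As folds over the end of the night it was not. AT1G19530 stood at 21.5-fold at 8 h and 76.9-fold at 48 h, AT5G39520 at 19.6-fold and 55.2-fold, and AT1G62510 at 12.5-fold and 38.2-fold. The shares below use the same end of night and 48 h arrays as that choice and are a description. By 8 h the mean difference from the end of the night had reached 70.7% of its 48 h value on the log2 scale for AT1G19530, 74.2% for AT5G39520 and 69.4% for AT1G62510. By 2 h, on a single array, it stood at 3.95%, 9.36% and 26.5% for those genes. At 24 h it was 75.5% for AT1G19530, 87.1% for AT5G39520 and 98.2% for AT1G62510.

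The genes differed in which step carried the increase. The difference of 4 h from the end of the night was 2.59 ± 0.45 log2 units for AT1G19530, 1.59 ± 0.24 for AT5G39520 and 2.84 ± 0.25 for AT1G62510. Between 24 h and 8 h the differences were 0.30 ± 0.50, 0.74 ± 0.26 and 1.51 ± 0.28 log2 units in the same order of genes. Between 48 h and 24 h they were 1.54 ± 0.50, 0.75 ± 0.26 and 0.09 ± 0.28. AT1G62510 thus gained most of its remaining signal on the first day and AT1G19530 on the second, in values that share arrays with the choice of the genes and were not tested against each other. The AT1G19530 difference between 24 h and 8 h hung on the 8 h arrays, at 0.93 without array A and -0.33 without array B, and was 0.81 with the array letters as a replicate block.

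**Figure D2:**
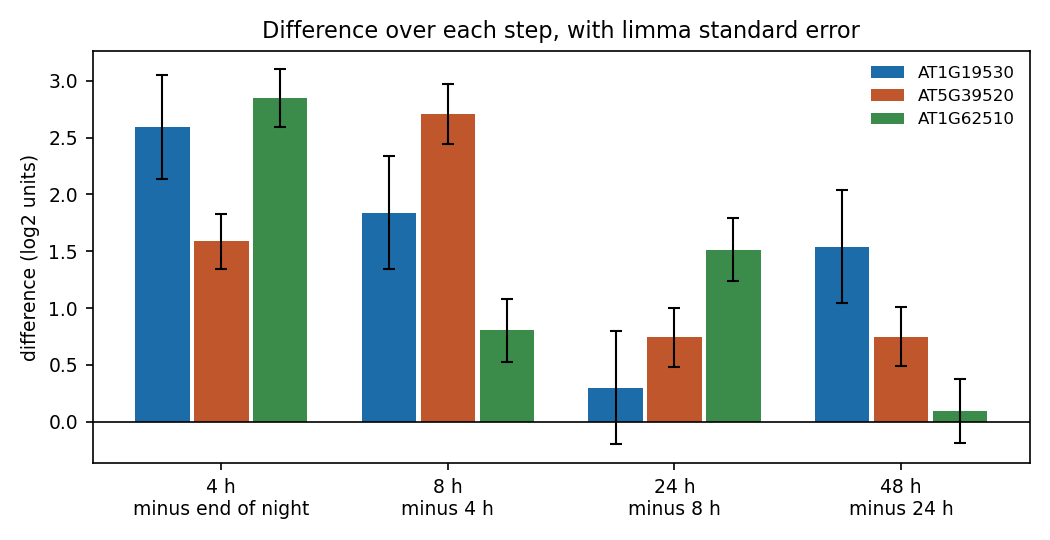
Difference in log2 signal (vertical axis) over each successive step between replicated time points (horizontal axis) for the 3 genes; bars are limma estimates and whiskers their standard errors, with 2 arrays per time and 3 at the end of the night. AT5G39520 has its largest step from 4 h to 8 h, at 2.71 log2 units, while AT1G62510 is near 0 and AT1G19530 at 1.54 from 24 h to 48 h.

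Ordered by mean, the time points of AT5G39520 ran in time order, and each neighbour from 4 h on differed by more than 2 standard errors. The -2 h, end of night and 2 h values were each within 2 standard errors of the next. For AT1G19530 the order was end of the night, -2 h, 2 h, 4 h, 8 h, 24 h, 6 h and 48 h. Each of the 3 lowest was within 2 standard errors of the next of them, and so were 8 h and 24 h, 24 h and 6 h, and 6 h and 48 h. For AT1G62510 the order was -2 h, end of the night, 2 h, 4 h, 8 h, 6 h, 24 h and 48 h, and only 8 h with 6 h and 24 h with 48 h lay within 2 standard errors. The single -2 h array was 0.74 ± 0.32 log2 units below the end of night mean for AT1G62510, 0.21 ± 0.30 below it for AT5G39520 and 0.05 ± 0.57 above it for AT1G19530.

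A test that does not reuse the arrays behind the choice was possible on the 7 arrays at -2 h, 2 h, 4 h, 6 h and 8 h. A line over hours was fitted to them. All 3 genes rose with time. AT5G39520 rose by 0.49 ± 0.056 log2 units per hour (limma, adjusted p = 0.00115), AT1G62510 by 0.44 ± 0.054 (limma, adjusted p = 0.00143) and AT1G19530 by 0.52 ± 0.10 (limma, adjusted p = 0.00989). By this slope 9.93% of all probe sets were called rising and 13.7% falling, and the 3 genes ranked 20, 34 and 13 by size among 22746. The calls held in each of the 12 alternatives run for each gene, with a highest adjusted p of 0.0382 for AT1G19530. The slope treats the course as a straight line, which AT1G19530, flat to 2 h, did not follow.

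**Figure D3:**
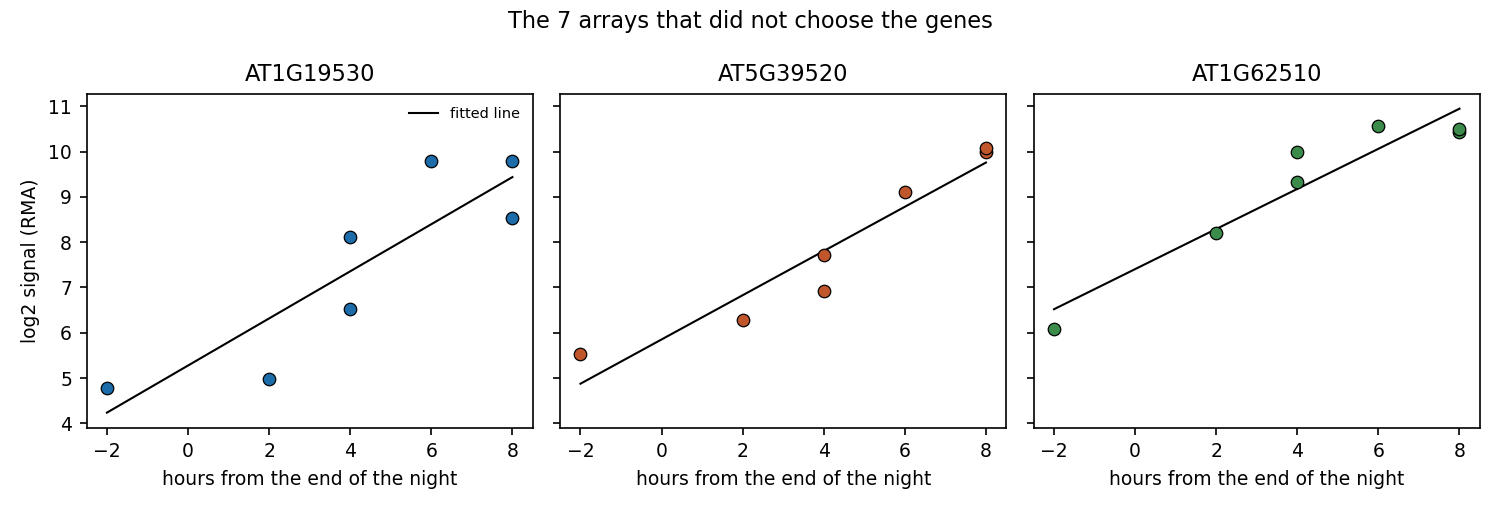
Log2 signal (vertical axis) against hours from the end of the night (horizontal axis, to scale) on the 7 arrays that did not enter the choice of the genes, with the fitted line. The line climbs by 0.52 log2 units per hour for AT1G19530, 0.49 for AT5G39520 and 0.44 for AT1G62510, and the AT1G19530 points at -2 h and 2 h are nearly level.

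In the fit without array letters the step from 4 h to 8 h of extended night was called for AT5G39520 alone. With the letters as a replicate block it was called for AT1G19530 as well. The means of this step do not use the arrays behind the choice, but its standard errors pool the spread of all 14 arrays, those included. AT5G39520 averaged 10.03 ± 0.065 log2 units at 8 h and 7.32 ± 0.56 at 4 h (SD, n = 2 each). It rose by 2.71 ± 0.26 log2 units (6.54-fold, limma, adjusted p = 0.00135), ranked 14 of 22746, and was called in all 17 alternatives. Many of those leave the 4 h and 8 h values as they are, so that the difference stayed at 2.71 and only its p-value could move. Over all 17 the difference ran from 2.31 to 3.11 log2 units. Fitted on the 7 arrays that did not enter the choice, the step had an adjusted p of 0.0206 for AT5G39520, 0.209 for AT1G19530 and 0.151 for AT1G62510 (limma). In the 14-array fit 1.66% of probe sets were called higher and 2.18% lower in this comparison.

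AT1G19530 averaged 9.16 ± 0.89 log2 units at 8 h and 7.32 ± 1.12 at 4 h (SD, n = 2 each). The difference of 1.84 ± 0.50 log2 units missed the threshold (limma, adjusted p = 0.0844). With the array letters as a replicate block it passed (adjusted p = 0.00625), as it did without 4 h array A (2.63 log2 units, adjusted p = 0.0420) and without the dimmest 33.3% of probe sets (adjusted p = 0.0484). Over its 17 alternatives the adjusted p ran from 0.00625 to 0.42. AT1G62510 averaged 10.47 ± 0.033 log2 units at 8 h and 9.66 ± 0.47 at 4 h (SD, n = 2 each). Its difference of 0.80 ± 0.28 log2 units was not called (limma, adjusted p = 0.187) in this fit or in any of the 17 alternatives. Whether the step differed between the genes was not tested.

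Array A lay above array B at 4 h for all 3 genes. The gap was 1.59 log2 units for AT1G19530, 0.80 for AT5G39520 and 0.66 for AT1G62510, where the standard deviation of the A minus B difference over all probe sets was 0.25. Only 0.0923%, 0.914% and 1.66% of probe sets had a larger gap in either direction. At 8 h AT1G19530 again read higher on array A, by 1.26 log2 units, which 0.422% of probe sets exceeded. AT5G39520 at -0.09 and AT1G62510 at -0.05 log2 units were close on the 8 h arrays. On the end of night arrays A minus B was 0.25 for AT1G19530, 0.30 for AT5G39520 and -0.12 for AT1G62510. The 25S rRNA control also differed between the letters, at 12.96 (A) and 11.23 (B) log2 units at 4 h and 13.37 (A) and 13.22 (B) at 8 h. Whether that difference bears on the gaps of the 3 genes was not tested.

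The gene most like AT1G19530 was the one beside it on chromosome 1. Likeness was measured as Pearson's correlation over the 8 time point means, among the 1011 other probe sets with 1 gene whose means ranged over at least 2 log2 units. It is a description of points that share arrays. AT1G19540, the next locus after AT1G19530, had r = 0.996, ahead of AT4G33150 of lysine breakdown (0.992), AT1G03290 (0.990), AT1G76590 (0.990) and AT3G19390 (0.990). In all, 84 probe sets exceeded 0.95, so that high values are common. AT1G19540 also came first by correlation over the 14 arrays (0.995), and second without the 48 h time point (0.994), behind AT2G21820 (0.995).

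AT1G19540 was not chosen by its values at 24 h or 48 h. It read 11.08 (B) and 11.18 (C) log2 units at 24 h and 11.97 (B) and 11.98 (C) at 48 h, against 7.15 (A), 7.02 (B) and 7.04 (C) in the end of night samples. It rose by 4.06 ± 0.29 log2 units at 24 h (limma, adjusted p = 8.57e-06) and by 4.90 ± 0.29 at 48 h (limma, adjusted p = 1.38e-06). It was called on the 7 arrays as well, rising by 0.40 log2 units per hour (limma, adjusted p = 0.00474). Like AT1G19530 it was near its starting signal at 2 h (7.46 log2 units) and read 10.77 at 6 h. The letter gap was there too: array A exceeded array B by 0.92 log2 units at 4 h, with 9.58 (A) and 8.66 (B), and by 0.92 at 8 h, with 10.96 (A) and 10.04 (B). The next most similar genes had smaller gaps. At 4 h and 8 h A minus B was 0.54 and 0.15 for AT4G33150, 0.49 and 0.15 for AT3G19390, 0.22 and 0.34 for AT1G76590, and -0.09 and -0.35 for AT1G03290. A wide gap at both times did occur elsewhere on the array. AT4G12490, a listed hybrid proline-rich protein picked for its gap, read 8.88 (A) and 7.01 (B) at 4 h and 8.42 (A) and 7.11 (B) at 8 h. The gene on the other side of AT1G19530, AT1G19520, had no probe set used here. Of the 10 genes within 5 places of AT1G19530, a range looked at after AT1G19540 was seen, 3 were measured. AT1G19540 alone of them varied by at least 2 log2 units. Probe sequences were not used here, and whether the neighbouring probe sets detect each other's transcripts was not tested.

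AT1G62510 also had a gene of similar course close by, while the gene just before it went the other way at 48 h. Of the 10 genes within 5 places of AT1G62510, 7 were measured, and 2 varied by at least 2 log2 units, AT1G62480 and AT1G62500. AT1G62480, 3 places before it on chromosome 1, ranked 3 of 1011 in likeness (r = 0.994) and the first over the 14 arrays (0.989), but was not among the first 5 without the 48 h time point. It was higher by 2.80 ± 0.15 log2 units at 24 h and by 2.85 ± 0.15 at 48 h (limma SE), given without a test because it was picked for a course like that of AT1G62510 over these same times. Between them lie AT1G62490, at -0.04 log2 units at 24 h, and AT1G62500, which is also listed among the hybrid proline-rich proteins.

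AT1G62500, the gene just before AT1G62510, correlated with it at -0.69. It read 6.76 (B) and 7.97 (C) log2 units at 48 h, against 9.96 (A), 9.25 (B) and 9.68 (C) in the end of night samples, with no overlap. It fell by 2.26 ± 0.54 log2 units at 48 h (limma, adjusted p = 0.00772), a call lost without the 48 h B array, the one with the low rRNA control (-1.66, adjusted p = 0.0689). At 24 h it stood at -1.13 ± 0.54 log2 units (limma, adjusted p = 0.150), and was called only without either of the 8 h arrays (adjusted p = 0.0375 each). The 8 h arrays disagreed, at 9.06 (A) and 7.03 (B). The annotation places another gene, AT1G62515, across AT1G62510 itself, and it had no probe set used here, so that signal from the overlapping gene was not told apart. Neither neighbour of AT5G39520 and none of the 10 genes within 5 places of it had a probe set annotated to it alone.

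**Figure D4:**
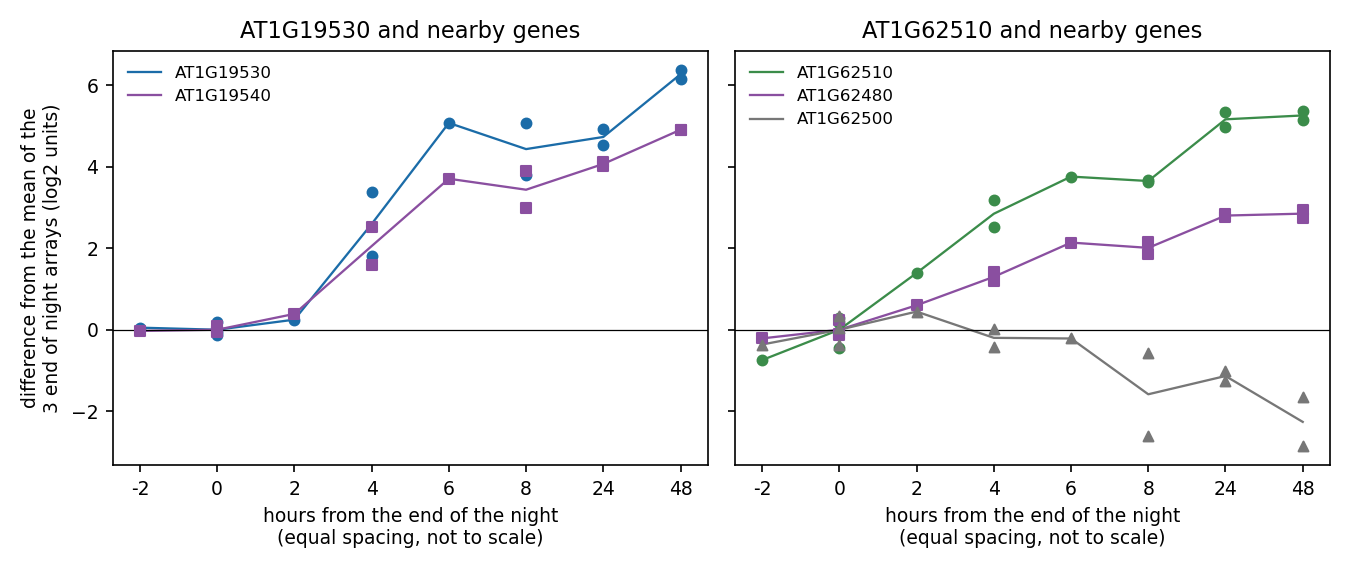
Difference of each array from the mean of the 3 end of night arrays in log2 units (vertical axis) against hours from the end of the night (horizontal axis, equally spaced and not to scale), for AT1G19530 with its neighbour AT1G19540 and for AT1G62510 with AT1G62480 and AT1G62500; points are arrays and lines join time point means. AT1G19540 tracks AT1G19530 up to 4.90 log2 units at 48 h, and AT1G62500 drops by 2.26 while AT1G62510 is up by 5.25.

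The remaining most similar courses of AT1G62510 were AT4G23870 (r = 0.996), AT5G63190 (0.995), AT1G33050 (0.994) and BPC1, a DNA-binding protein of the basic pentacysteine family (0.993). BPC1 was higher by 2.29 log2 units at 24 h and 2.38 at 48 h. For AT5G39520 they were AT3G05640 (0.993), AT3G07280 (0.992), the gibberellin receptor GID1C (0.990), the autophagy protein APG8A (0.990) and AT1G36070 (0.989). AT3G05640, at 4.23 log2 units at 24 h and 5.32 at 48 h, kept the first place for AT5G39520 over the 14 arrays and without the 48 h time point. Among the 3 genes, AT1G19530 and AT5G39520 correlated at 0.963, AT5G39520 and AT1G62510 at 0.956 and AT1G19530 and AT1G62510 at 0.945. The similar genes were picked for the highest correlations, so that lower values among the 3 genes follow from that choice. In likeness to each other the 3 genes ranked between 49 and 123 of 1011.

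The other core hypoxia genes did not move as one. Of 46 listed besides AT1G19530, 23 had a probe set used here. At 24 h 8 rose, 5 fell and 10 were not called against the end of the night, with a median of 0.13 log2 units where all probe sets had 0.02. At 48 h 9 rose, 6 fell and 8 were not called, with a median of 0.27 against 0.03 for all probe sets. Without the dimmest 33.3% of probe sets 1 fell at 24 h and 1 at 48 h, so that the other falls were of probe sets this filter left out. AT4G10270 was among those left out, although at the end of the night it read 7.31 (A), 7.27 (B) and 6.76 (C) log2 units. Each of these lay above the median of its array. Without 24 h array C 2 fell at 24 h, and without 48 h array C 2 fell at 48 h. Those counts stand beside 15.5% of all probe sets called higher at 24 h and 20.5% at 48 h, and 17.2% and 20.3% called lower.

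Some of the hypoxia genes changed strongly. AT4G39675 rose by 3.11 ± 0.19 log2 units at 24 h and 3.73 ± 0.19 at 48 h. AT4G27450 rose by 3.20 ± 0.12 and 3.28 ± 0.12, AT2G15880 by 2.79 ± 0.52 and 2.44 ± 0.52, AT5G42200 by 2.16 ± 0.22 and 2.09 ± 0.22 and AT1G33055 by 2.02 ± 0.14 and 2.35 ± 0.14. AT4G10270 fell by 2.54 ± 0.21 log2 units at 24 h and fell by 2.43 ± 0.21 at 48 h. PDC2, a pyruvate decarboxylase of fermentation, rose by 1.13 ± 0.19 at 24 h and 1.19 ± 0.19 at 48 h. It was the only fermentation enzyme of the list with a probe set used here. AT3G10040 (HRA1, an attenuator of the hypoxia response) stood at -0.11 ± 0.11 at 24 h and fell by 0.42 ± 0.11 at 48 h, a call lost with median centring (adjusted p = 0.0518) and without 48 h array C (adjusted p = 0.0682).

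By the slope over the 7 arrays 5 of the 23 rose and 3 fell, and from 4 h to 8 h 3 rose and 0 fell by limma (4 and 1 at an unadjusted p under 0.05), with PDC2 higher in that step by 1.74 ± 0.20 log2 units (limma, adjusted p = 0.00289). Over all probe sets 9.93% were called rising and 13.7% falling by the slope, and 1.66% higher and 2.18% lower from 4 h to 8 h, so that the share of the list falling by the slope was near that of all probe sets. The letter gap of AT1G19530 was not general in the list. Array A was above array B for 8 of 23 at 4 h and for 8 of 23 at 8 h, with medians of -0.13 and -0.07 log2 units, where 45.7% and 44.6% of all probe sets had A above B. These counts take in gaps of any size. A wide gap was not confined to AT1G19530, since AT2G15880 read 10.25 (A) and 8.89 (B) log2 units at 8 h.

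Of 27 other hybrid proline-rich proteins listed besides AT1G62510, 11 were measured, and most were not called, as held for most probe sets on the array. At 24 h 1 rose, AT4G22460 by 0.52 ± 0.15 log2 units, and 0 fell by limma (1 and 0 at an unadjusted p under 0.05). The AT4G22460 call was lost when A, B or C of the end of the night was left out (adjusted p = 0.0523 to 0.0593) and without 24 h array B (0.35 log2 units, adjusted p = 0.205). At 48 h 0 rose and 2 fell by limma (1 and 2 at an unadjusted p under 0.05), AT1G62500 and AT2G10940. AT2G10940 stood at -2.07 ± 0.42 log2 units (limma, adjusted p = 0.00291). It read 9.98 (B) and 11.70 (C) at 48 h, and leaving out 1 array at a time gave differences from -2.93 to -1.21. With the replicate block 2 were also called higher at 48 h, AT4G12500 by 0.51 ± 0.18 log2 units (limma, adjusted p = 0.0460) and AT4G12530 by 0.32 ± 0.10 (limma, adjusted p = 0.0289), where the block called 25.1% of all probe sets higher and 24.3% lower. Without the block 15.5% of all probe sets were called higher and 17.2% lower at 24 h, and 20.5% and 20.3% at 48 h, so that the 2 falls among 11 at 48 h were near the share of all probe sets. From 4 h to 8 h none of the 11 was called by limma in either direction, with 0 higher and 1 lower at an unadjusted p under 0.05. Of 19 dark-inducible and sugar-starvation genes only AT3G15450 had a probe set annotated to it alone. It read 11.40 log2 units at -2 h, 11.96 (A), 11.85 (B) and 12.16 (C) as the night ended and 13.39 at 2 h, and lay between 13.56 and 13.75 on all later arrays, with a rise of 1.70 ± 0.11 at 24 h (limma, adjusted p = 5.86e-06). Its course thus levelled off by 4 h, before those of the 3 genes described above.

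**Figure D5:**
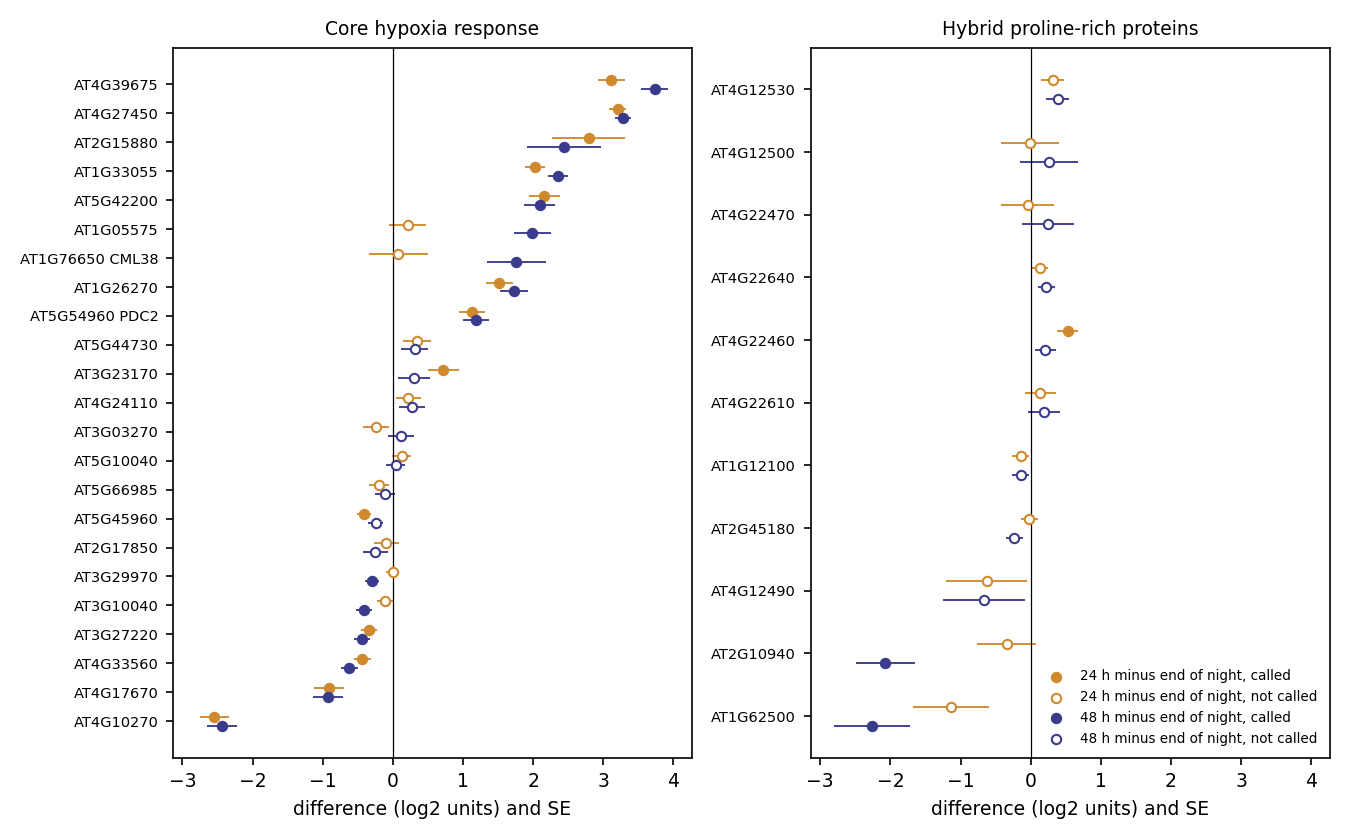
Difference from the end of the night in log2 units with its limma standard error (horizontal axis) at 24 h and 48 h for the 23 measured core hypoxia genes and the 11 measured hybrid proline-rich proteins (vertical axis, ordered by the 48 h value), without AT1G19530 and AT1G62510; filled points were called at an adjusted p under 0.05. Hypoxia genes run from AT4G10270 at -2.54 to AT4G39675 at 3.73, and no hybrid proline-rich protein exceeds 0.52 where it was called higher.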

How the data were processed

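The deposited table holds log2 intensities per probe set after RMA by the authors, per the submitters' processing notes, which name no software version. All 14 columns were matched by sample, and 64 control probe sets were left out. The array annotation gave several genes for 503 probe sets and none for 8730; 13436 of 13513 single genes matched TAIR10.1. Differences came from limma 3.58.1 in R 4.3.3 (lmFit, eBayes, two-sided), with 8 time points as a factor over 14 arrays (6 residual degrees of freedom), and the slope from 7 arrays; unreplicated times were assumed to vary like replicated ones. P-values were Benjamini-Hochberg adjusted over all 22746 probe sets, called under 0.05, with no filter on signal. The number of arrays limits precision. The scripts were tested on simulated data. Members, lists and tests were chosen with earlier results of these data known. Named besides members were the 5 most similar genes each, up to 6 called list genes with the largest change, PDC2, neighbours and markers; others were chosen after their values were seen, such as AT1G62480 as a neighbour, AT2G21820, AT4G12500, AT4G12530, HRA1, MGL, UPB1 and AT3G20340. Same-letter arrays of different times deviated together, with Pearson r from 0.17 to 0.58 across probe sets in 16 pairs, all over 0.1. Different letters gave -0.58 to 0.365 in 32 pairs. Where a time held only a pair of arrays, their deviations from its mean mirrored each other by construction. Values therefore repeated or returned with the sign flipped. Array 4 h A had 0.53 with 8 h A and -0.53 with 8 h B. The 16 pairs are thus not separate evidence, and the different-letter range is no independent contrast. Letters were taken as pairing samples on the same-letter values alone. Figures used Python 3.11.15 and matplotlib 3.10.9. Alternatives were median centring, quantile normalization, a dim filter, trend and robust eBayes, a letter block, other arrays in the fit and leaving out each array. A planned family list for AT5G39520 needed product names and was not used here.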

Additional observations from a re-analysis of the deposited data

How the results depend on the processing

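The slopes of all 3 genes and the 4 h to 8 h rise of AT5G39520 kept their calls in all alternatives run. The 4 h to 8 h difference of AT1G19530 was called with the replicate block (1.84 log2 units, adjusted p = 0.00625), without the dimmest 33.3% of probe sets (1.84, adjusted p = 0.0484) and without 4 h array A; leaving out 1 array at a time gave 1.04 to 2.63 log2 units. The block did not change the call of AT5G39520 or of AT1G62510 for that step. The slope was not fitted with the block. Its -2 h, 2 h and 6 h arrays carry no letter, while its 4 h and 8 h arrays do and were treated as independent. Why the AT1G19530 call depended on the setting was not tested. Differences of the 3 genes at 24 h and 48 h moved by less than their residual standard deviation over all replicated times (0.61 log2 units for AT1G19530) in the alternatives run; for AT1G19530 the block gave 5.06 at 24 h and 6.59 at 48 h, a move larger than its standard deviations within those times. The number of probe sets called between 4 h and 8 h, 874 in all, was 2459 with the replicate block, 263 at an adjusted p under 0.01 and 185 to 1230 without 1 array. For the slope, 5376 calls became 2661 at an adjusted p under 0.01 and 3423 to 5892 without 1 array, lowest without the -2 h array, an alternative added after seeing the data. Of the 5 most similar genes, 2 were shared for AT5G39520 and 2 for AT1G62510 over the 14 arrays, and 1 and 3 without the 48 h time point, so that the lists depend on the measure; the first place stayed in both alternatives for AT5G39520, not for AT1G19530 or AT1G62510. Over 16 alternatives the measured hypoxia genes called higher numbered 7 to 8 at 24 h and 7 to 10 at 48 h and those called lower 1 to 5 and 1 to 8; for the hybrid proline-rich proteins these counts were 0 to 1 and 0 to 2 higher and 0 to 1 and 1 to 3 lower. Low signal at the end of the night limits the fold of AT1G19530 and of AT5G39520.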
